A study of Homo sapiens with 12 samples.

Results

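sgRAC1 clone 1 is a RAC1 knockout clone of DU145, an established human prostate cancer cell line, and it was set here against the RAC1-positive lines of the same experiment. The clone was picked by its label and accounts for 2 of the 12 RNA-seq libraries. It was made with the guide sgRAC1_1, and its libraries came from batch 1 and batch 2. The other knockout clones, sgRAC1 clone 2 and sgRAC1 clone 3, were both made with a second guide, sgRAC1_2, and also gave 2 libraries each. The RAC1-positive side held 6 libraries: 2 each from the untransfected Parental line and from sgNTC clones 1 and 2, which received a non-targeting guide labelled sgNTC_1 and are wild type for RAC1. Every line grew in RPMI medium with 10% serum. Edited lines had received Cas9 complexed with a guide and were expanded from single cells, so each is 1 clone. As clone 1 is the only clone of its guide, what belongs to the guide and what belongs to the clone cannot be told apart.

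RAC1 encodes a small GTPase that cycles between an inactive GDP-bound and an active GTP-bound form. Exchange factors such as VAV2 load it with GTP downstream of receptors such as EGFR, and active RAC1 recruits the WAVE and Arp2/3 machinery that builds branched actin at the cell front. It also feeds NADPH oxidases, adherens junctions and transcription through SRF and other factors. The series title places the experiment in the response of RAC1 to EGFR through VAV2, but these libraries carry no growth factor treatment in their labels.

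Transcript abundance was measured in TPM, a length-scaled share of the library that sums to 1000000, so the depth of each library is unknown. Of 56832 genes, 17654 averaged at least 1 TPM in clone 1 or in the RAC1-positive lines and were compared on the log2(TPM + 1) scale. Differences are clone 1 minus the mean of the 3 RAC1-positive lines, and a gene was called at a limma adjusted p under 0.05. The p-values rest on how far the 2 libraries of each line lie from each other, pooled over the 6 lines, and carry no information on how other clones of the same guide would vary. Library sgNTC clone 2 replicate 1 stood apart, with 13608 genes above 0 against 20470 to 25156 in the other 11 libraries, and with a median correlation to the others of 0.877 against 0.939 to 0.954. Of 10 markers taken for DU145, which include the mesenchymal gene VIM beside epithelial genes, 9 averaged at least 1 TPM in clone 1 and also in the RAC1-positive lines. Their summed level was 875 to 931 TPM in clone 1 and 660 to 1197 TPM in RAC1-positive libraries. Within it, VIM stood at 216 and 221 TPM in clone 1 and at 175 to 234 TPM in RAC1-positive libraries. The prostate luminal genes KLK3 and TMPRSS2 were listed at 0 in all 12 libraries. Of 9 fibroblast markers, none averaged 1 TPM on either side, with LUM and FAP at 0 in every library, and the list summed to at most 0.429 TPM in clone 1 and 0.751 TPM in RAC1-positive libraries. The 9 leukocyte markers summed to 0.726 to 2.04 TPM in clone 1 and 0 to 1.08 TPM in RAC1-positive libraries. PTPRC, CD3E and MS4A1 were at 0 in all 12, and CD14 was at 0.726 and 1.59 TPM in clone 1 and at most 1.08 TPM in RAC1-positive libraries. Endothelial markers summed to 3.33 to 5.44 TPM in clone 1 and 4.52 to 13.8 TPM in RAC1-positive libraries, with VWF at 0 in all 12. Nearly all of that sum was EGFL7, at 3.22 and 5.19 TPM in clone 1 and 4.01 to 13.7 TPM in RAC1-positive libraries. Neuroendocrine markers summed to 9.93 to 10.0 TPM in clone 1 and 3.95 to 9.34 TPM in RAC1-positive libraries, with INSM1 at 0 in all 12. Of that sum, ENO2 made up 9.70 and 9.68 TPM in clone 1 and 3.77 to 8.36 TPM in RAC1-positive libraries, and it stood at 8.62 to 11.5 TPM in clones 2 and 3. The part of these transcripts in the results was not tested.

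The targeted gene was lower in the clone but its transcript was still present. RAC1 (chromosome 7, 6374523 to 6403977, GRCh38) stood at 47.5 and 36.5 TPM in clone 1, against a lowest, median and highest value of 149, 170 and 202 TPM in RAC1-positive libraries. Both clone 1 values lay below all 6 RAC1-positive values, and in clones 2 and 3 the gene ranged from 39.6 to 59.2 TPM. RAC1 fell by 2.01 on that log2 scale (SE 0.16, limma adjusted p = 0.00132). Without any single library the difference ran from -2.20 to -1.83 and stayed past the threshold. These are transcript levels of the whole gene, so they do not show what protein is made, and in bulk RNA fewer cells carrying a transcript cannot be told apart from less transcript per cell.

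The nearest relatives of RAC1 did not pass the test in clone 1. RAC2, the haematopoietic Rac isoform, stood at 6.31 and 7.59 TPM in clone 1, against 2.02, 3.42 and 4.33 TPM as the lowest, median and highest RAC1-positive values. The groups did not overlap, yet the difference of 0.85 (SE 0.20) had a limma adjusted p of 0.157. RAC3, the third Rac isoform, was at 0.299 and 2.24 TPM in clone 1 and at 0 to 0.846 TPM in RAC1-positive libraries, so the clone 1 libraries disagreed with each other. RHOG, a Rac-like GTPase, differed by -0.10 (SE 0.20) and CDC42, which drives filopodia, by -0.02 (SE 0.18), and neither passed. EGFR was at 23.9 and 18.3 TPM in clone 1 and at 12.2, 15.2 and 18.0 TPM as the lowest, median and highest RAC1-positive values. Its difference of 0.46 (SE 0.19) had a limma adjusted p of 0.495, and VAV2 differed by 0.24 (SE 0.24, limma adjusted p = 0.813). Of the Rac pathway lists, 0 of 23 Rac exchange factors, GAPs and GDIs and 0 of 32 Rac effectors, WAVE and Arp2/3 genes were called by limma. At an unadjusted p under 0.05 those lists held 2 higher and 1 lower, and 3 higher and 0 lower, while 9.58% of all genes kept passed that unadjusted threshold. ARHGDIA, which holds Rac proteins in the cytosol, had the smallest p of the regulators, at 3.46 and 3.24 TPM in clone 1 against 4.83, 6.33 and 7.05 TPM as the lowest, median and highest RAC1-positive values (difference -0.71, SE 0.18, limma adjusted p = 0.190). It did not pass, although the groups did not overlap.

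Across all genes kept, 82 were called in clone 1, which is 0.464% of those tested. Of these, 73 were higher (0.414%) and 9 were lower (0.051%), and the median difference over all genes was 0.04. At an unadjusted p under 0.05 there were 1691 genes. All 82 called genes had both clone 1 libraries beyond all 6 RAC1-positive libraries, a pattern that 11.8% of all genes kept shared. For 45 of them the clone 1 libraries also lay beyond all 4 libraries of clones 2 and 3, as they did for 616 of the 2082 genes beyond all 6 RAC1-positive libraries (29.6%). Those 616 genes are 3.49% of all genes kept. The 45 were 39 higher and 6 lower genes, and over all genes kept the shares were 2.38% and 1.1%. The same test called 22 genes (0.125%) in clone 2 and 157 genes (0.889%) in clone 3. Genes present only in those clones were not among the genes tested. The count for clone 1 depended on which libraries entered the fit. It was 36 to 50 without any single library of Parental, sgNTC clone 1 or knockout clones 2 and 3, with the lowest without Parental replicate 2. It was 135 without clone 1 replicate 1, 150 without clone 1 replicate 2, 167 without sgNTC clone 2 replicate 1 and 317 without sgNTC clone 2 replicate 2. When each line was reduced to its mean and 1 line was set against 3, limma called 0 genes, with 1452 at an unadjusted p under 0.05 and a lowest adjusted p of 0.0762. Of 74 called genes with a gene symbol, 18 were called in all 12 fits that left out 1 library, and 15 of those also in all 3 fits that left out 1 RAC1-positive line. All 74 had the same sign in both batches, which follows from both clone 1 libraries lying beyond all 6 RAC1-positive libraries. With batch as a block, 62 were called.

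Several genes with large differences in clone 1 were low in the RAC1-positive lines, with medians of at most 2.19 TPM. DNAJC12, a co-chaperone of the aromatic amino acid hydroxylases (chromosome 10, 67796665 to 67838166), stood at 21.1 and 44.3 TPM in clone 1, against 0, 0.588 and 1.01 TPM as the lowest, median and highest RAC1-positive values. It rose by 4.39 (SE 0.32, limma adjusted p = 0.000781). RSPO3, a secreted amplifier of Wnt signalling (chromosome 6, 127118604 to 127197765), was at 19.9 and 23 TPM in clone 1 and at 0, 0.656 and 1.22 TPM in RAC1-positive libraries. It rose by 3.77 (SE 0.25, limma adjusted p = 0.000777), and both clone 1 libraries were far above every other library of the series. CNTN1, an adhesion molecule of the immunoglobulin family anchored to the outer membrane (chromosome 12, 40692442 to 41072418), was at 48.3 and 31.4 TPM in clone 1, against 1.18, 2.19 and 4.10 TPM in RAC1-positive libraries. Its rise of 3.64 (SE 0.38, limma adjusted p = 0.00823) lost the call only without clone 1 replicate 1 (adjusted p = 0.0629). KYNU, which encodes kynureninase of tryptophan breakdown (chromosome 2, 142877498 to 143055832), reached 29.1 and 33.5 TPM in clone 1, against 0.872, 2.12 and 11.8 TPM in RAC1-positive libraries. It rose by 2.96 with the smallest adjusted p of the genes named (SE 0.16, limma adjusted p = 0.000644). TSPAN7, a membrane tetraspanin on chromosome X, was at 14.2 and 16.8 TPM in clone 1 and at 0, 1.11 and 1.59 TPM in RAC1-positive libraries (difference 3.13, SE 0.22, limma adjusted p = 0.000777). DNAJC12, RSPO3, KYNU and TSPAN7 were called in every fit that left out 1 library or 1 line. Of these genes and CNTN1, only RSPO3 was also called by limma against clones 2 and 3. The rises of the other genes were therefore not shown to be particular to clone 1.

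**Figure D1:**
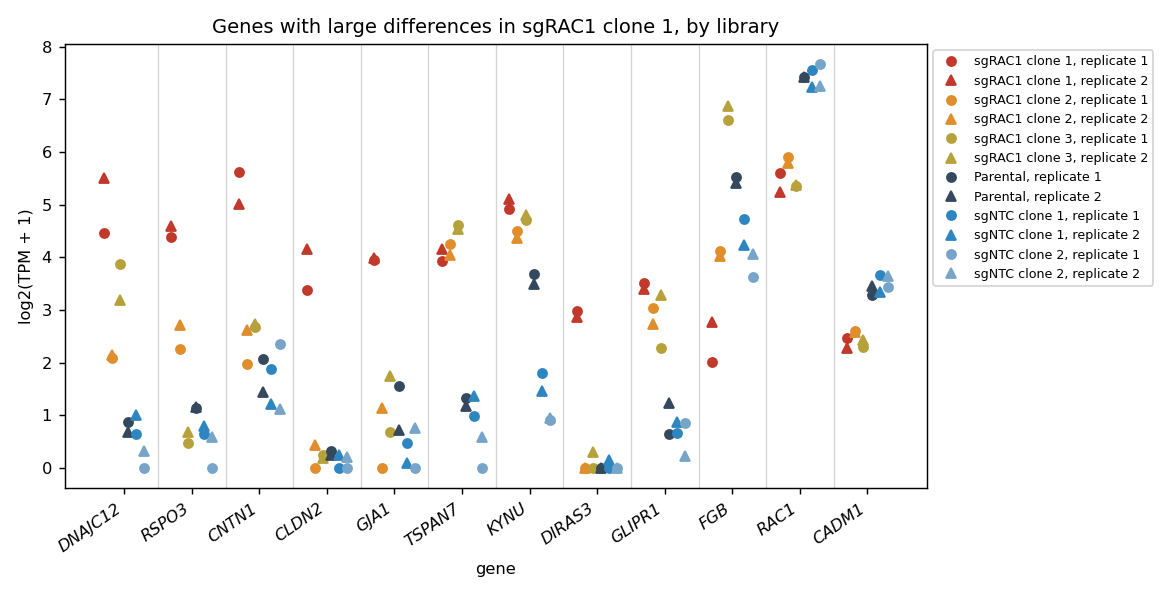
Level of 12 genes in each library on the log2(TPM + 1) scale, with sgRAC1 clone 1 at the left of each column, then clones 2 and 3, then the RAC1-positive lines. Circles are replicate 1 and triangles replicate 2. RSPO3, CLDN2, GJA1 and DIRAS3 are highest in clone 1, TSPAN7 and KYNU are high in all 3 knockout clones, and FGB is lowest in clone 1 and highest in clone 3.

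Several other strongly raised genes encode junction, secreted and growth-restraining proteins. CLDN2, a pore-forming claudin of leaky epithelia, was at 9.36 and 16.9 TPM in clone 1 and at no more than 0.257 TPM in any RAC1-positive library (difference 3.60, SE 0.31, limma adjusted p = 0.0022). GJA1, which encodes the gap junction protein connexin 43, was at 14.4 and 14.8 TPM in clone 1, against 0, 0.517 and 1.92 TPM in RAC1-positive libraries. Its call (difference 3.36, SE 0.44, limma adjusted p = 0.0177) was lost in 5 of 12 fits without 1 library: either library of clone 1 or sgNTC clone 1, or Parental replicate 2, with adjusted p up to 0.103. DIRAS3, an imprinted Ras-family GTPase that restrains growth, was at 6.93 and 6.29 TPM in clone 1 and listed at 0 in most RAC1-positive libraries, with a highest value of 0.106 TPM. It rose by 2.90 (SE 0.27, limma adjusted p = 0.00389). DEFB1, an antimicrobial peptide of epithelia, was at 6.68 and 17.9 TPM in clone 1, against at most 0.900 TPM in RAC1-positive libraries (difference 3.44, SE 0.40, limma adjusted p = 0.0133). GLIPR1, a secretory-pathway protein regulated by p53, was at 10.3 and 9.54 TPM in clone 1 and 0.166, 0.696 and 1.34 TPM in RAC1-positive libraries. Its difference was 2.70 (SE 0.33, limma adjusted p = 0.0138), and the call was lost without sgNTC clone 1 replicate 1 or either clone 1 library, with adjusted p up to 0.0875. S100A9, a subunit of the inflammatory protein calprotectin, was at 12.6 TPM in both clone 1 libraries and at 0, 0.759 and 8.86 TPM in RAC1-positive libraries. Its call (difference 2.63, SE 0.42, limma adjusted p = 0.0417) was made in only 3 of 12 fits without 1 library, with adjusted p up to 0.247 without clone 1 replicate 1. The U5 spliceosomal RNA gene RNU5E-1 was at 3.80 and 7.12 TPM in clone 1 and listed at 0 in the other 10 libraries. Against clones 2 and 3, limma also called CLDN2, DIRAS3 and RNU5E-1, but not GJA1, DEFB1, GLIPR1 or S100A9.

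Among the called genes that met the rule for naming, the largest increases by amount of transcript were in actomyosin and histone genes. TMSB4X, which encodes the actin monomer-binding thymosin beta-4, was at 1711 and 2033 TPM in clone 1, against 848, 1040.0 and 1524 TPM in RAC1-positive libraries. It rose by 0.77 (SE 0.09, limma adjusted p = 0.0148), and the call was lost without Parental replicate 2 or clone 1 replicate 2 (adjusted p up to 0.0798). MYL12A, a regulatory light chain of non-muscle myosin II, was at 1537 and 1455 TPM in clone 1 and at 861, 964 and 1097 TPM in RAC1-positive libraries. Its difference of 0.61 (SE 0.10) passed narrowly at a limma adjusted p of 0.049, passed in only 2 of 12 fits without 1 library and missed with batch as a block (adjusted p = 0.0757).

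Histone genes were the list with the most calls in clone 1. Of 29 kept, 10 were called higher and 0 lower, with a list median of 0.91 against 0.04 over all genes, and 14 lay above all 6 RAC1-positive libraries. Over all genes kept, 0.414% were called higher and 7.64% lay above all 6. HIST2H2AA3 and HIST2H2AA4, near-identical copies of an H2A gene whose reads may be shared, were at 518 and 579 TPM and at 502 and 569 TPM in clone 1. In RAC1-positive libraries they ranged from 79.0 to 140 TPM and from 76.9 to 137 TPM. Their differences were 2.35 and 2.34 (SE 0.16 each, limma adjusted p = 0.000777 each), and both were called in every fit that left out 1 library. HIST1H1C, the linker histone H1.2, was at 894 and 986 TPM in clone 1, against 270, 316 and 422 TPM in RAC1-positive libraries (difference 1.52, SE 0.18, limma adjusted p = 0.0138), a call lost without either clone 1 library (adjusted p up to 0.0977). HIST1H4H, an H4 gene, was at 56.7 and 67.0 TPM in clone 1 and at 12.6, 17.0 and 20.1 TPM in RAC1-positive libraries (difference 1.87, SE 0.20, limma adjusted p = 0.00897). That call was lost without clone 1 replicate 2 (adjusted p = 0.0535). The remaining called members were HIST1H2BC, HIST1H2BK, HIST1H3H, HIST2H2BE and the near-identical pair HIST2H4A and HIST2H4B, with differences of 0.99 to 1.99. HIST1H2BC missed with batch as a block (limma adjusted p = 0.0579). HIST1H4C, the most abundant histone transcript of the list, and HIST1H1E were not called, at 1202 and 1133 TPM against 1270 to 1930 TPM, and at 65.3 and 57.2 TPM against 78.8 to 112 TPM, for clone 1 against RAC1-positive libraries. Neither had a positive difference. The count of called members ran from 0 to 12 over the 26 settings tried. Clones 2 and 3 had list medians of 0.38 and 0.70. DNA replication genes (45 kept, median -0.08) and mitosis genes (40 kept, median -0.03) held 0 calls by limma. At an unadjusted p under 0.05, 4 and 0 were lower and none higher, against 3.25% lower and 6.33% higher among all genes kept.

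Only 9 genes were called lower in clone 1, and 4 of the 7 with a mapped position lay on the short arm of chromosome 7 between RAC1 and the telomere. That stretch held 35 of the 12532 genes kept with a position. ZFAND2A, a proteasome-associated zinc finger protein (chromosome 7, 1152071 to 1160759), was at 22.4 and 24.2 TPM in clone 1, against 38.1, 54.3 and 57.6 TPM in RAC1-positive libraries (difference -1.09, SE 0.17, limma adjusted p = 0.0379). NUDT1, which removes oxidised nucleotides (chromosome 7, 2242222 to 2251146), was at 24.2 and 24.7 TPM in clone 1 and at 39.4, 53 and 61.1 TPM in RAC1-positive libraries (difference -1.04, SE 0.16, limma adjusted p = 0.0379). Its neighbour FTSJ2, a methyltransferase of mitochondrial ribosomal RNA (chromosome 7, 2234231 to 2242198), was at 55.2 and 57.0 TPM in clone 1, against 86.5, 98.9 and 114 TPM in RAC1-positive libraries. PSMG3, a proteasome assembly chaperone (chromosome 7, 1567330 to 1571005), was at 57.2 and 54.5 TPM in clone 1, against 78.3, 100.2 and 112 TPM in RAC1-positive libraries. FTSJ2 fell by 0.83 and PSMG3 by 0.80 (SE 0.14 and 0.12, limma adjusted p = 0.0464 and 0.0379). Each of these calls was made in only 2 or 3 of 12 fits without 1 library, with adjusted p up to 0.195 when a clone 1 library was left out. With batch as a block, ZFAND2A and FTSJ2 missed the threshold (limma adjusted p = 0.0569 and 0.0642).

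The neighbourhood of RAC1 was then examined as a whole, a grouping chosen after these values were seen. Telomeric of RAC1, 21 genes at 5 TPM or more, taken as the average of the 6 lines on the log2(TPM + 1) scale, had a median difference of -0.69 in clone 1, with -0.76 in its first library and -0.60 in its second. The same genes had medians of -0.45 in clone 2 and -0.57 in clone 3, and of 0.11, -0.12 and -0.03 in Parental, sgNTC clone 1 and sgNTC clone 2. In clone 1, 20 of the 21 had a negative difference and 13 lay below all 6 RAC1-positive libraries, a pattern found in 6.29% of the 7509 genes with a position at that level. With genes down to 1 TPM included, 35 genes had a median of -0.54 in clone 1. EIF3B, a subunit of translation initiation factor 3, was at 16.2 and 18.1 TPM in clone 1 against 24.4 to 36.3 TPM in RAC1-positive libraries, and RNF216, a ubiquitin ligase, at 13.8 and 14.1 TPM against 20.5 to 34.2 TPM. Neither passed the test (limma adjusted p = 0.0677 and 0.0761), although neither overlapped. The 13 genes within 6 Mb on the centromeric side of RAC1 had medians of -0.29 in clone 1, -0.02 in clone 2 and -0.45 in clone 3. The remaining 338 genes of chromosome 7 had a median of -0.01 in clone 1. On the telomeric side the medians were thus negative in all 3 knockout clones, made with both guides, and the median of clone 1 minus clones 2 and 3 over the same 21 genes was -0.20 (-0.07 over the 35 genes down to 1 TPM). None of the 21 was called by limma in that contrast, with 3 lower and 0 higher at an unadjusted p under 0.05.

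**Figure D2:**
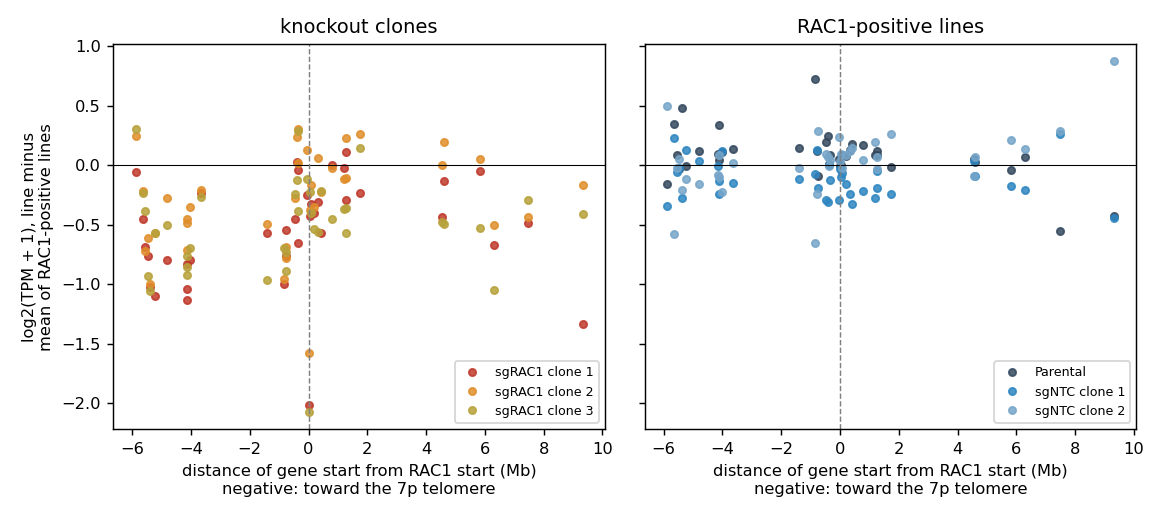
Difference in log2(TPM + 1) from the mean of the RAC1-positive lines for genes around RAC1 on chromosome 7, against the distance of their start from the start of RAC1 in Mb (negative toward the 7p telomere), with the knockout clones on the left and the RAC1-positive lines on the right. Telomeric of RAC1 the knockout points lie mostly below 0, with medians of -0.69, -0.45 and -0.57 for clones 1, 2 and 3.

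The other named genes called lower were not on chromosome 7. FGB, the fibrinogen beta chain (chromosome 4, 154562956 to 154571086), was at 3.03 and 5.84 TPM in clone 1, against 11.3, 21.6 and 45.3 TPM in RAC1-positive libraries. It fell by 2.20 (SE 0.23, limma adjusted p = 0.00897) and was called in every fit without 1 library. CADM1, an adhesion molecule often lost in carcinomas (chromosome 11, 115169218 to 115504957), was at 4.51 and 3.84 TPM in clone 1 and at 8.74, 9.83 and 11.6 TPM in RAC1-positive libraries. Its difference was -1.10 (SE 0.17, limma adjusted p = 0.0393), with a call in 2 of 12 fits without 1 library and an adjusted p up to 0.170 without clone 1 replicate 2 and of 0.0569 with batch as a block.

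Genes of the interferon response and antigen presentation mostly had positive differences in clone 1, but few passed the test. Of 30 interferon stimulated genes kept, 26 had a positive difference against 54.5% of all genes kept, 15 lay above all 6 RAC1-positive libraries against 7.64% of all genes kept, and 1 was called. The list median was 0.70 in clone 1, 0.53 in clone 2 and 1.02 in clone 3. IFIT3, an interferon-induced RNA-binding protein, was at 17.6 and 28.6 TPM in clone 1, against 3.87, 5.51 and 10.7 TPM in RAC1-positive libraries (difference 1.73, SE 0.25, limma adjusted p = 0.0279). Its call held in 5 of 12 fits without 1 library (adjusted p up to 0.168 without clone 1 replicate 2). Of 20 MHC class I and antigen processing genes, 3 were called higher, against 0.414% of all genes kept. The list median was 0.41 in clone 1, 0.35 in clone 2 and 0.78 in clone 3, and -0.10 for clone 1 minus clones 2 and 3. None of the 20 had both clone 1 libraries above all 10 other libraries, against 2.38% of all genes kept, so a count of 0 says little about this list. PSMB8, a catalytic subunit of the immunoproteasome, was at 44.6 and 63.9 TPM in clone 1 and at 15.9, 18.7 and 20.5 TPM in RAC1-positive libraries (difference 1.49, SE 0.19, limma adjusted p = 0.0161). ERAP2, which trims peptides in the endoplasmic reticulum, was at 15.7 and 22.0 TPM in clone 1 against 4.90, 7.17 and 8.96 TPM, and HLA-B, which presents them, at 93.3 and 109 TPM against 45.4, 54.9 and 82.1 TPM. Both were called (limma adjusted p = 0.0195 and 0.0393). PSMB8 lost the call without Parental replicate 2, sgNTC clone 1 replicate 1 or clone 1 replicate 2, while ERAP2 and HLA-B were called in 3 and 2 of 12 such fits, with adjusted p up to 0.0848 and 0.157. HLA-B also missed with batch as a block (adjusted p = 0.0579). NF-kB and inflammatory genes (26 kept, median 0.29) had 0 calls by limma. At an unadjusted p under 0.05, 6 were higher and 1 lower, against 6.33% and 3.25% of all genes kept.

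Promoters of the called genes were searched for the core of an interferon-stimulated response element (GAAA, any 2 bases, GAAA) on both strands of the 250 bases before each RefSeq start (GRCh38.p14). Among all 27305 genes with a promoter entry, 3.71% held a match at 1 or more starts. Of the 82 called genes, 59 had an entry and 6 of these held a match: ERAP2, HIST1H3H, IFIT3, NCOA7, RAB27A and RSPO3. The windows of 5 of them are shown because they include the interferon gene called in clone 1 and RSPO3, which also differed from clones 2 and 3, with the match in capitals, 5′ to 3′ on the gene's strand.
IFIT3, chr10:89327821-89327904 (+): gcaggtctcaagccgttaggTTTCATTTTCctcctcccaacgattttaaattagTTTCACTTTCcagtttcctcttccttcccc
ERAP2, chr5:96876450-96876499 (+): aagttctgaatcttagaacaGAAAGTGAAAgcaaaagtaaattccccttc
NCOA7, chr6:125919191-125919240 (+): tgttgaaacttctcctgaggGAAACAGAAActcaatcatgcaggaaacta
RSPO3, chr6:127118464-127118513 (+): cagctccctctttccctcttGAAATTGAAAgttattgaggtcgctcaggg
RAB27A, chr15:55319334-55319373 (-): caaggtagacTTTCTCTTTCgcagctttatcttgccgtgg
IFIT3 carried 2 matches in this window and 2 more at a second start, on the opposite strand to the gene in each case. The NCOA7 window precedes a start inside the gene, whose annotated span is 125781161 to 125932030. NCOA7, a gene with a short interferon-induced isoform, was at 56.8 and 59.7 TPM in clone 1, against 11.4, 19.6 and 34.0 TPM in RAC1-positive libraries (difference 1.60, SE 0.15, limma adjusted p = 0.00465), and was called in every fit without 1 library or 1 line. RAB27A, which docks secretory vesicles, was at 20.8 and 25.5 TPM in clone 1 and 7.41, 9.94 and 10.9 TPM in RAC1-positive libraries (limma adjusted p = 0.036, called in 2 of 12 fits without 1 library). A match describes letters in the sequence and does not show that a factor binds there.

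Epithelial and matrix genes held a few calls each. Of 35 epithelial junction and keratin genes, 27 had a positive difference, 2 were called higher and the list median was 0.40, while 54.5% of all genes kept had a positive difference and 0.414% were called higher. CDH3, P-cadherin of basal epithelia (chromosome 16, 68636189 to 68722616), was at 45.3 and 56.9 TPM in clone 1 and at 8.98, 15.8 and 24.6 TPM in RAC1-positive libraries (difference 1.60, SE 0.21, limma adjusted p = 0.0177). Its neighbour CDH1, E-cadherin (chromosome 16, 68737225 to 68835548), was at 12.3 and 21.0 TPM in clone 1, against 1.99, 3.72 and 6.25 TPM in RAC1-positive libraries (difference 1.84, SE 0.27, limma adjusted p = 0.031). In clones 2 and 3 the differences from the RAC1-positive lines were 1.46 and 2.43 for CDH3 and 1.01 and 1.71 for CDH1, called in clone 3 but not in clone 2. The CDH3 call was lost without either Parental or either clone 1 library (adjusted p up to 0.122), and CDH1 was called in 3 of 12 such fits. Mesenchymal state genes had a similar median of 0.34 over 19 genes, with 2 called higher, TGFBR1 and the matrix glycoprotein gene TNC. TNC was at 27.5 and 22.7 TPM in clone 1 and 6.95, 8.72 and 10.6 TPM in RAC1-positive libraries (difference 1.42, SE 0.17, limma adjusted p = 0.0138), a call lost without clone 1 replicate 1 (adjusted p = 0.0682). Of 20 laminins, collagens and matrix glycoproteins, 2 were called higher, TNC and the laminin chain gene LAMB1, which was at 30.3 and 27.7 TPM in clone 1, against 9.86, 13 and 14.7 TPM in RAC1-positive libraries (limma adjusted p = 0.0279, called in 4 of 12 fits without 1 library). Among 10 integrin subunits, 9 had a positive difference and limma called 0. At an unadjusted p under 0.05, 5 were higher, against 6.33% of all genes kept. ITGA2, a collagen receptor subunit, was at 22.8 and 11.8 TPM in clone 1 and at 3.30, 5.07 and 10.6 TPM in RAC1-positive libraries (limma adjusted p = 0.195).

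Genes that respond to actin through SRF and MRTF held 1 call, a higher one, among 23 kept, against 0.414% of all genes kept. The list median was 0.29. VCL, which encodes the focal adhesion protein vinculin, was at 96.4 and 79.6 TPM in clone 1, against 44.7, 46.1 and 61.4 TPM in RAC1-positive libraries (difference 0.84, SE 0.14, limma adjusted p = 0.0464, called in 2 of 12 fits without 1 library). The beta-actin gene ACTB, which lies telomeric of RAC1, was at 1346 and 2333 TPM in clone 1 and spread from 1543 to 6892 TPM in RAC1-positive libraries (limma adjusted p = 0.505 without and 0.0317 with batch as a block). Targets of YAP and TAZ had a median of -0.23 over 24 genes and 0 calls by limma. At an unadjusted p under 0.05, 2 were higher and 4 lower, against 6.33% and 3.25% of all genes kept.

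Redox, polyamine and protease inhibitor genes completed the calls within lists. SAT1, the enzyme that acetylates polyamines for export (chromosome X, 23783173 to 23786226), was at 387 and 484 TPM in clone 1, against 128, 150 and 183 TPM in RAC1-positive libraries. It rose by 1.52 (SE 0.13, limma adjusted p = 0.0022) and was called in every fit without 1 library or 1 line. It was the only call among 12 polyamine genes, whose median was 0.05, while 0.414% of all genes kept were called higher. Of these 12, 0 had both clone 1 libraries above all 10 other libraries, and limma called 0 against clones 2 and 3. Over all genes kept the shares were 2.38% and 0.108%, so these counts say little about the list. For SAT1 itself, the rise was not particular to clone 1 by either measure. SERPINA1, alpha-1 antitrypsin, was at 34.3 and 42.0 TPM in clone 1, against 8.35, 10.8 and 22.0 TPM in RAC1-positive libraries (difference 1.59, SE 0.18, limma adjusted p = 0.0125), and lost the call only without clone 1 replicate 2 (adjusted p = 0.0628). With FGB, it made 1 higher and 1 lower call among 17 complement and coagulation genes, against 0.414% and 0.051% of all genes kept. None of the 17, SERPINA1 included, had both clone 1 libraries above all 10 other libraries, against 2.38% of all genes kept. Of 39 NRF2 target and redox genes, 28 had a positive difference and 2 were called higher, GPX2 and GCLC. Among all genes kept, 54.5% had a positive difference and 0.414% were called higher. The list median was 0.26 in clone 1, 0.06 in clone 2 and 0.27 in clone 3. GCLC, the catalytic subunit of glutathione synthesis, was at 28.2 and 33.8 TPM in clone 1 and 9.96, 14.7 and 17.2 TPM in RAC1-positive libraries. GPX2, an epithelial glutathione peroxidase, was at 3.35 and 7.41 TPM in clone 1 against at most 0.862 TPM in RAC1-positive libraries. The limma adjusted p was 0.0464 for GCLC and 0.0446 for GPX2, and these calls were made in 2 and 1 of 12 fits without 1 library. RSPO3, TGFBR1, TSPAN7 and KYNU were the only calls among 17 Wnt pathway genes, 32 TGF-beta and BMP pathway genes, 19 tetraspanins and 14 kynurenine and retinoid enzymes. All were called higher, as were 0.414% of all genes kept.

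Of 36 gene lists, 21 held no called member in clone 1. They covered 624 genes kept, of which 47 were higher (7.53%) and 41 lower (6.57%) at an unadjusted p under 0.05 in limma, against 6.33% and 3.25% of all genes kept, and their medians ran from -0.23 for YAP and TAZ targets to 0.43 for matrix proteases and inhibitors. Cytosolic ribosomal protein genes had a median of -0.14 over 78 genes and ribosome biogenesis genes a median of -0.22 over 48 genes, with 20 and 10 members below all 6 RAC1-positive libraries against 4.16% of all genes kept. EGFR family receptors and ligands stood at 0.20, ERK-induced immediate early genes at 0.02, p53 targets at 0.01, nuclear oxidative phosphorylation genes at -0.08, mitochondrial genome protein genes at 0.11, cholesterol and fatty acid synthesis genes at 0.04 and hypoxia and glycolysis genes at 0.12. Integrated stress and unfolded protein genes stood at -0.05, Notch pathway genes at 0.16, ephrins, Eph receptors, semaphorins and plexins at 0.25, and the 4 cancer-testis antigens kept at -0.05.

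**Figure D3:**
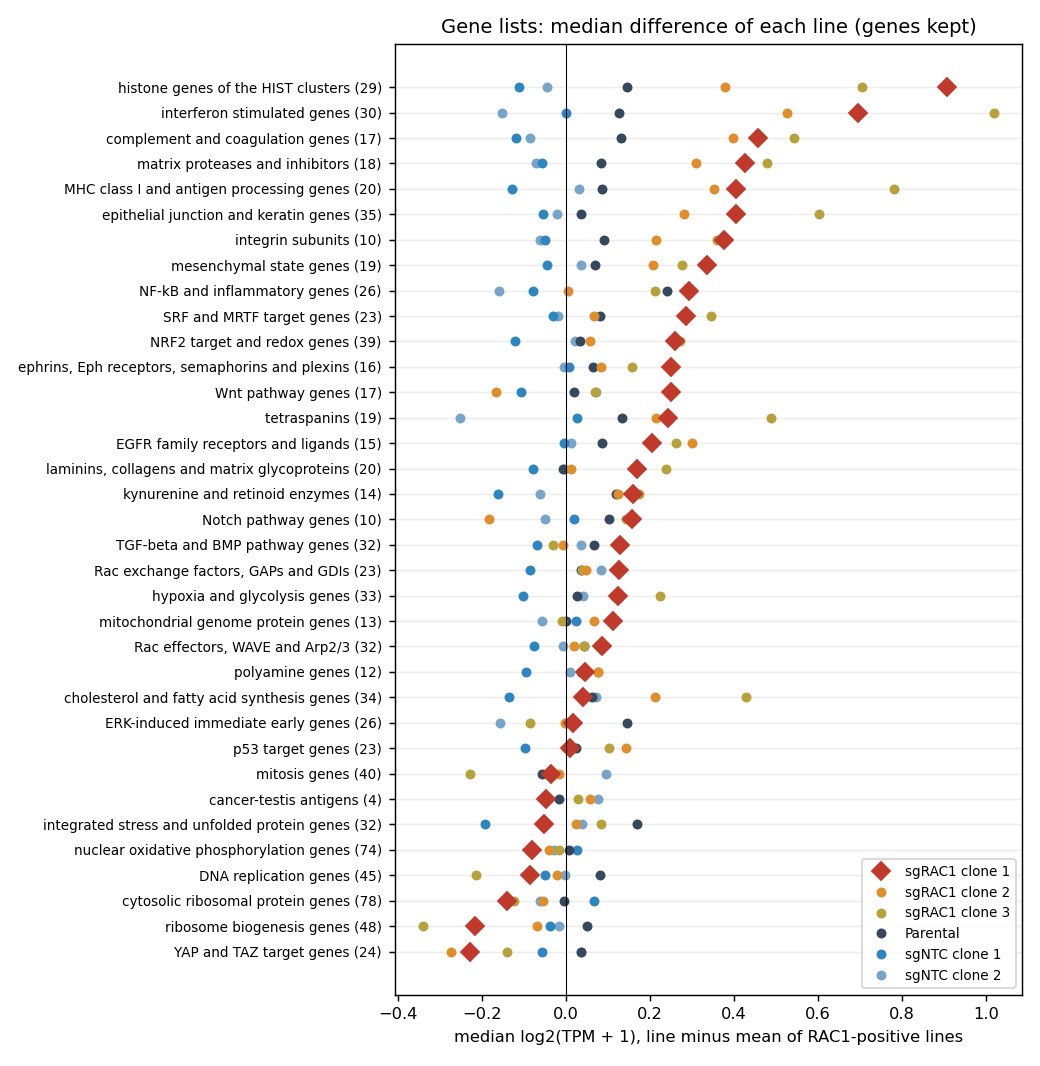
Median difference in log2(TPM + 1) from the mean of the RAC1-positive lines for gene lists in each line, with the number of genes kept in parentheses. Red diamonds are sgRAC1 clone 1, which lies highest for histone genes at 0.91 and lowest for YAP and TAZ targets at -0.23, while the medians of the RAC1-positive lines run from -0.25 (sgNTC clone 2, tetraspanins) to 0.24 (Parental, NF-kB and inflammatory genes).

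What set clone 1 apart from the other knockout clones was tested directly, as clone 1 minus the mean of clones 2 and 3. This contrast called 19 genes, 0.108% of those tested, 16 higher in clone 1 (0.0906%) and 3 lower (0.017%), with 721 at an unadjusted p under 0.05. Genes were kept by their level in clone 1 or the RAC1-positive lines. A gene present only in clones 2 and 3 was therefore not tested, so the 16 and 3 do not weigh the directions evenly. With batch as a block the contrast called 9. It called 0 without clone 2 replicate 1 or clone 3 replicate 1, 6 to 8 without either library of sgNTC clone 1 or without replicate 2 of clone 2 or 3, and 107 and 133 without clone 1 replicate 1 and replicate 2. Of the 19 genes, 12 were also called the same way against the RAC1-positive lines, and both contrasts share the clone 1 libraries.

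CLDN2, RSPO3 and DIRAS3 were high in clone 1 and near the RAC1-positive level in at least 1 other knockout clone. CLDN2 was at no more than 0.356 TPM in any library of clones 2 and 3, against 9.36 and 16.9 TPM in clone 1 (difference from clones 2 and 3 of 3.55, SE 0.32, limma adjusted p = 0.00809). RSPO3 was at 19.9 and 23 TPM in clone 1, against 3.78 and 5.54 TPM in clone 2 and 0.386 and 0.603 TPM in clone 3 (difference 2.96, SE 0.26, limma adjusted p = 0.00809). DIRAS3 was listed at 0 in 3 of the 4 libraries of clones 2 and 3 and at 0.235 TPM in the fourth, and differed by 2.85 (SE 0.28, limma adjusted p = 0.0114). MORC4, an ATPase with a zinc finger that binds histone marks, was at 25.4 and 22.9 TPM in clone 1, against 4.36 to 6.24 TPM in clones 2 and 3 and 2.53, 3.83 and 4.91 TPM in RAC1-positive libraries. It differed by 2.03 from clones 2 and 3 (SE 0.18, limma adjusted p = 0.00809) and by 2.39 from the RAC1-positive lines (SE 0.17, limma adjusted p = 0.000777). CSGALNACT1, which starts chondroitin sulfate chains, was at 8.73 and 9.61 TPM in clone 1, 0.559 to 1.38 TPM in clones 2 and 3, and 0.732, 2.12 and 2.75 TPM in RAC1-positive libraries (difference from clones 2 and 3 of 2.41, SE 0.25, limma adjusted p = 0.0152). TGFBR1, the type I receptor of TGF-beta (chromosome 9, 99104038 to 99154192), was at 101 and 98.4 TPM in clone 1, 23.4 to 31.2 TPM in clones 2 and 3, and 26.4, 31.8 and 56.0 TPM in RAC1-positive libraries. It differed by 1.80 from clones 2 and 3 (SE 0.23, limma adjusted p = 0.0384) and by 1.53 from the RAC1-positive lines (SE 0.22, limma adjusted p = 0.0265, called in 4 of 12 fits without 1 library). F13A1, a transglutaminase subunit of coagulation factor XIII, named here after its values were seen, was at 4.28 and 3.46 TPM in clone 1 and at no more than 0.244 TPM in any other library.

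FGB moved in opposite directions in clones 1 and 3. It was at 3.03 and 5.84 TPM in clone 1, 16.3 and 15.2 TPM in clone 2 and 96.9 and 116 TPM in clone 3, against a RAC1-positive median of 21.6 TPM. Its difference from clones 2 and 3 was -3.01 (SE 0.25, limma adjusted p = 0.00809), and clone 3 lay above the RAC1-positive lines by 2.15 (limma adjusted p = 0.00547).

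A further 7 genes differed from clones 2 and 3 without being called against the RAC1-positive lines. They were singled out after their values were seen. GSTP1, a glutathione transferase that is often silenced in prostate cancer, was at 45.8 and 56.1 TPM in clone 1, 13.5 and 19.7 TPM in clone 2 and 2.25 and 0.502 TPM in clone 3, against 39.7, 63.8 and 129 TPM as the lowest, median and highest RAC1-positive values (difference from clones 2 and 3 of 3.06, SE 0.38, limma adjusted p = 0.0382). FMR1, which encodes an RNA-binding regulator of translation, was at 9.51 and 9.44 TPM in clone 1, 0.806 to 1.91 TPM in clones 2 and 3 and 7.67, 10.1 and 20.1 TPM in RAC1-positive libraries (limma adjusted p = 0.0491). DNAJC15, a mitochondrial co-chaperone, was at 7.20 and 6.85 TPM in clone 1, at no more than 0.570 TPM in clones 2 and 3, and at 1.71, 2.95 and 5.09 TPM in RAC1-positive libraries (limma adjusted p = 0.00809). FANCF, a subunit of the Fanconi anaemia core complex, was at 6.52 and 9.61 TPM in clone 1, 0.112 to 1.28 TPM in clones 2 and 3 and 1.16, 5.06 and 7.11 TPM in RAC1-positive libraries (limma adjusted p = 0.0382). RDH10, a retinol dehydrogenase, was at 18.2 and 20.7 TPM in clone 1, 5.36 to 6.85 TPM in clones 2 and 3 and 7.40, 8.39 and 10.9 TPM in RAC1-positive libraries (limma adjusted p = 0.0384). In the opposite direction, SERPINB5, which encodes maspin, was at 1.27 and 2.28 TPM in clone 1, 18.3 to 36.0 TPM in clones 2 and 3 and 0.132, 0.563 and 2.15 TPM in RAC1-positive libraries (limma adjusted p = 0.0152). ENPP5, a membrane member of the nucleotide pyrophosphatase family, was at 0.321 and 0 TPM in clone 1, 5.27 to 17.4 TPM in clones 2 and 3 and 0, 1.03 and 3.33 TPM in RAC1-positive libraries (limma adjusted p = 0.00809). These adjusted p-values are those of the contrast with clones 2 and 3.

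**Figure D4:**
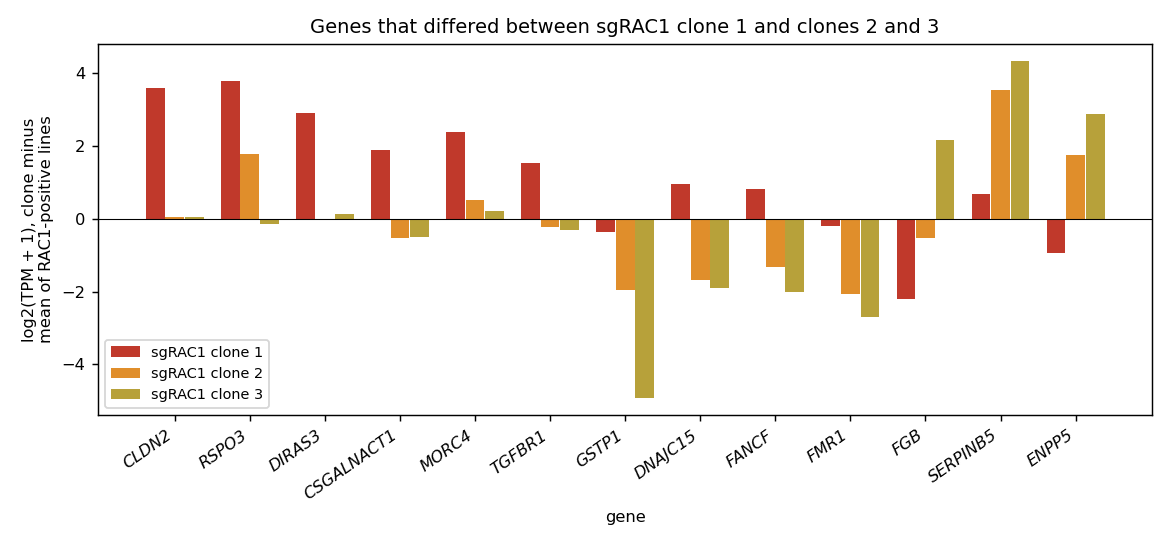
Difference in log2(TPM + 1) from the mean of the RAC1-positive lines for 13 genes in clones 1, 2 and 3, from left to right within each gene. CLDN2, RSPO3, DIRAS3, CSGALNACT1, MORC4 and TGFBR1 lie well above 0 in clone 1, GSTP1, DNAJC15, FANCF and FMR1 lie below 0 in clones 2 and 3, and SERPINB5 and ENPP5 lie above 0 in clones 2 and 3.

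Positions of the called genes showed pairs of neighbours, grouped after their values were seen. CLDN2 (chromosome X, 106900164 to 106930861) lies within the annotated span of MORC4 (106813871 to 107000244) on the opposite strand. How the counting treated strand is not stated in the labels or headers, and reads of these genes may be shared. The 10 genes kept within 2 Mb of MORC4, both included, had a median difference of 0.06 in clone 1. The other 8 had differences of -0.22 to 0.36, and limma called 0 of them, with 0 at an unadjusted p under 0.05. On chromosome 6, GJA1 and RSPO3 start 5.68 Mb apart, and NCOA7 and PKIB, an inhibitor of protein kinase A at 5.32 and 6.60 TPM in clone 1 against 1.19 to 2.04 TPM in RAC1-positive libraries, are called genes between them. Clone 1 minus clones 2 and 3 was 3.07 for GJA1 and 2.96 for RSPO3, but 0.45 for NCOA7 and 0.22 for PKIB. Of these 4 genes, limma called only RSPO3 in that contrast. The differences of GJA1, RSPO3, NCOA7 and PKIB from the RAC1-positive lines were 3.36, 3.77, 1.60 and 1.45. Most of the NCOA7 and PKIB rise was thus shared with the other knockout clones. The 15 genes kept in that interval, these 4 included, had a median of 0.32. The other 11 had a median of 0.02 and differences of -0.42 to 0.85, 6 of them positive, and limma called 0 of them, with 2 at an unadjusted p under 0.05. Of 67 genes called higher with a position, 17 lay on chromosome 6 (25.4%), 6 of them with a histone symbol, and 6 on chromosome 9 (8.96%). Of all 12532 genes kept with a position, 5.68% lay on chromosome 6 and 4.28% on chromosome 9.

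Chromosome 9 separated the clones. Its 335 genes at 5 TPM or more had a median of 0.02 in clone 1, while clone 2 stood at -0.24, clone 3 at -0.19, and Parental, sgNTC clone 1 and sgNTC clone 2 at -0.02, -0.02 and 0.06. In clone 1 the chromosome medians ran from -0.10 on chromosome 21 to 0.05 on chromosome X, a range that contained chromosome 9. For the chromosome 9 genes TGFBR1 and TNC, the distance of clone 1 from clones 2 and 3 therefore stood beside a chromosome-wide median of 0.24 for the same contrast, and the part of that shift in their values was not tested.

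**Figure D5:**
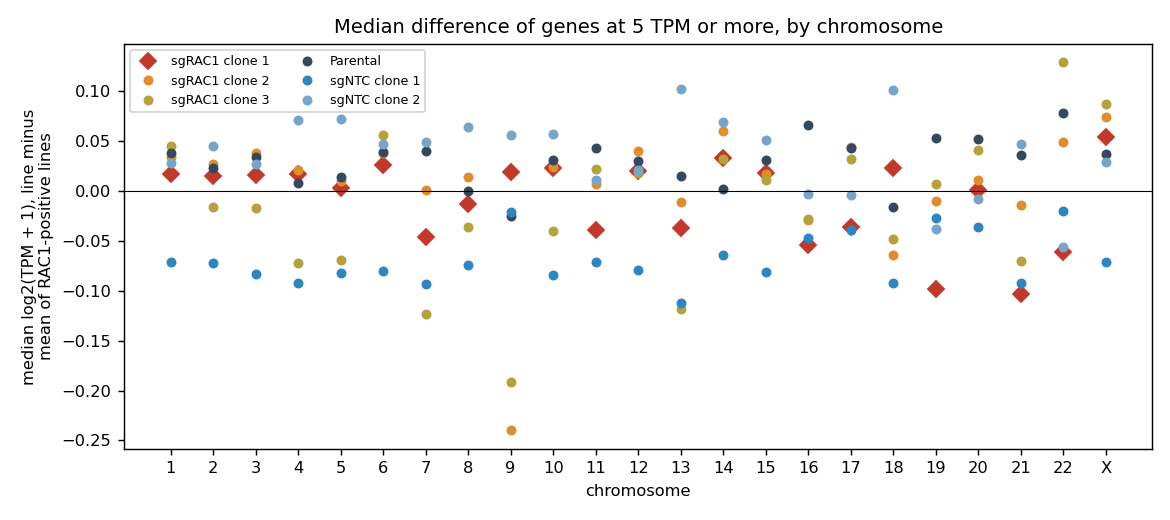
Median difference in log2(TPM + 1) from the mean of the RAC1-positive lines over genes averaging 5 TPM or more over the 6 lines, for each chromosome and line. Red diamonds are sgRAC1 clone 1 and stay between -0.10 and 0.05, while on chromosome 9 clones 2 and 3 lie at -0.24 and -0.19.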

How the data were processed

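RNA from 12 DU145 libraries was reverse transcribed with SMARTScribe from 160 ng, amplified and tagmented, per the labels' protocols. STAR 2.6.1d, bcl2fastq, DESeq2 and the build GRCh38 are named in the submitters' processing notes. The sources used here do not state how genes were counted, or with which strand setting and annotation, so reads of overlapping or near-identical genes may be shared. The authors deposited TPM values for 56832 genes, which keep no depth.

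Values were analysed as log2(TPM + 1) with limma 3.58.1 in R 4.3.3 in 1 fit of 12 libraries with a mean per line, a variance trend and Benjamini-Hochberg adjustment over 17654 genes at a mean of at least 1 TPM on either side. The log2(TPM + 1) scale understates changes of low genes. Positions were found for 71.0% of these genes, from GENCODE 29 by symbol or else through RefSeq symbols and synonyms. Promoter sequences came from RefSeq (GRCh38.p14). Members of lists, lists and tests were chosen with earlier results of these data known. Named genes were RAC1 relatives, then per direction the 12 largest differences among called genes with the groups apart and at least 5 TPM, the 10 with the largest difference from clones 2 and 3, the 5 with the largest difference in TPM, and up to 4 called members of each list (or 2 with the smallest p). Some markers and a gene list are not reported here. Exceptions to the rule are marked in the text, including symbols such as GSTP1 and ENPP5 that the rule skipped for their ending.

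The replicate number marks the batch, per the labels, and so pairs the libraries. Same-numbered deviations over 15 pairs of lines correlated from -0.13 to 0.29 (median 0.026, 2 over 0.1). Identical values were found in 0 of 66 pairs of libraries. The fit was tested on simulated data. Tested alternatives were the block, scaling, level filter, pseudocount, batches, libraries, lines and line means.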

Additional observations from a re-analysis of the deposited data

Results flagged for a closer look

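Among 66 genes examined, 8 had 1 RAC1-positive library far from the other 5, and chance flags about 1 in 20. These libraries held 0.900 TPM of DEFB1, 1.92 TPM of GJA1, 0.106 TPM of DIRAS3, 56.0 TPM of TGFBR1, 61.4 TPM of VCL, 10.6 TPM of ITGA2, 129 TPM of GSTP1 and 10.9 TPM of RDH10, in each case the highest RAC1-positive value. For the called genes both clone 1 libraries still lay above that value.

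Clone 1 differed from the mean of clones 2 and 3 by limma's test for 17 genes with a gene symbol. On the log2(TPM + 1) scale, clone 1 was higher by 3.55 for CLDN2, 3.06 for GSTP1, 2.96 for RSPO3, 2.85 for DIRAS3, 2.74 for DNAJC15, 2.64 for RNU5E-1, 2.48 for FANCF, 2.41 for CSGALNACT1, 2.36 for RNU6-484P, 2.17 for FMR1, 2.16 for F13A1, 2.03 for MORC4, 1.80 for TGFBR1 and 1.56 for RDH10. Its difference was -3.25 for ENPP5, -3.25 for SERPINB5 and -3.01 for FGB. RNU5E-1 and RNU6-484P were listed at 0 in all 10 other libraries, so their differences are set by the pseudocount.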

How the results depend on the processing

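The 82 genes called against the RAC1-positive lines became 377 in batch 1 alone, 249 in batch 2 alone, 18 with only the 8 libraries compared, 0 by line means, 39 without Parental, 29 without sgNTC clone 1 and 140 without sgNTC clone 2, and 36 to 317 without 1 library. The other settings stayed within 1.5 times of 82, the replicate block at 89. The 19 genes called against clones 2 and 3 became 540 and 493 in batch 1 and batch 2 alone, 2 with a filter of 5 TPM, 67 with none, 2 with a pseudocount of 0.1, 9 with the replicate block, 7 without clone 2, 0 without clone 3, and 0 to 133 without 1 library; the cause was not tested. A batch alone leaves 1 library per line, which is assumed to vary like the others. The RAC1 difference was -2.01 also by line means, where it missed the threshold (adjusted p = 0.0762), and stayed past it in every other setting. Of 1659 values of 64 named genes under alternatives, 420 lost and 15 gained the call and 11 changed sign, all in genes not called. RAC3 was -0.035 to 1.28 without 1 library (negative without clone 1 replicate 2), RHOG 0.14 in batch 1 alone and 0.039 without Parental, and VAV2 -0.12 in batch 2 alone. CDC42 was 0.33 in batch 2 alone, 0.022 with upper quartile scaling, 0.0077 without sgNTC clone 2, and -0.17 to 0.13 without 1 library. Beside the counts given above, the block changed calls of single genes: ZFAND2A, CADM1, FTSJ2, MYL12A, HIST1H2BC and HLA-B lost the call with it. Depth is unknown, so no counting error can be given for genes near 1 TPM.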
